A study of Rattus norvegicus with 6 samples.

Results

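The cytosolic sulfotransferases Sult1a1, Sult1b1, Sult1c2, Sult1c3, Sult1e1 and Sult2a1 were examined in fibrotic and normal rat liver. Their probes were those whose RefSeq accession belongs to 1 of these 6 genes, which gave 6 probes of 30367 on the array. They covered 5 of the 15443 genes that the array's probes named, with 2 probes for Sult1b1. No probe was matched to Sult1e1, the estrogen sulfotransferase, which was not analysed here. Total RNA was taken from the livers of 3 rats in which hepatic fibrosis had been induced by bile duct ligation (surgical closure of the bile duct, so that bile backs up into the liver) and of 3 normal rats, and each animal had its own array. The question was which genes differ between fibrotic and normal liver tissue. The sources used here give neither strain, sex nor age, nor the time after ligation, nor whether the normal rats had a sham operation.

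Cytosolic sulfotransferases move a sulfonate group from the donor PAPS to hydroxyl and amino groups of small molecules. The products are more water soluble and leave cells through export carriers. In liver the SULT1 enzymes act mainly on phenols, thyroid hormones and estrogens, while SULT2A enzymes act on hydroxysteroids such as dehydroepiandrosterone and on bile acids. Bile acid sulfation favours excretion and matters most where bile flow is blocked.

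Levels are given as the log2 processed signal minus the 75th percentile of the same array, called scaled log2 levels, so that 0 is the 75th percentile. A level also depends on the probe, so levels of different genes are not ranked, and where a log2 ratio of probes is given below, only its difference between the groups is read. That percentile was 4840 to 6401 signal units on fibrosis arrays and 3755 to 4386 on normal arrays. On fibrosis arrays 68.8% to 78.0% of spots were well above background, and on normal arrays 67.2% to 70.0% were. Across 19731 probes, Pearson correlations were 0.931 to 0.964 among fibrosis arrays, 0.982 to 0.989 among normal arrays and 0.890 to 0.927 for a fibrosis array with a normal one. They are taken over probes, which are not independent replicates. The median SD of a probe within a group was 0.42 for fibrosis and 0.23 for normal, on the log2 scale. All arrays lay on 1 slide, where fibrosis arrays 2 and 3 stood in row 2, and fibrosis array 1 and all 3 normal arrays stood in row 1. Precision is limited by the number of arrays, 3 in each group.

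In fibrotic liver Sult1c2, Sult2a1 and Sult1c3 were lower than in normal liver, by 6.23-fold, 3.34-fold and 2.02-fold. The probes of Sult1b1 and Sult1a1 did not pass the test. Counted by probe, 3 of 6 were called lower and 0 higher at an adjusted p under 0.05 (limma with Benjamini-Hochberg adjustment over all probes tested). Over all 19731 probes, 6.79% were called lower and 12.4% were called higher. At an unadjusted p under 0.05, 4 of the 6 probes were lower and 0 higher, against 14.7% of all probes lower and 17.5% higher, or 32.1% in either direction. The groups did not overlap for 5 of the 6 probes, each lower in fibrosis, against 38.4% of all probes without overlap in either direction and 19.3% with fibrosis lower. The median difference over all probes tested was -0.10 on the log2 scale. All 6 probes were well above background on every array. Their 72 spots included 47 with a mark of the scanner software for uneven or outlying pixels, 18 on fibrosis arrays and 29 on normal arrays, and 0 were saturated. Of all spots other than controls, 18.8% to 33.0% were marked on fibrosis arrays and 24.0% to 35.2% on normal arrays. The spots of these probes were thus marked more often than spots in general.

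**Figure D1:**
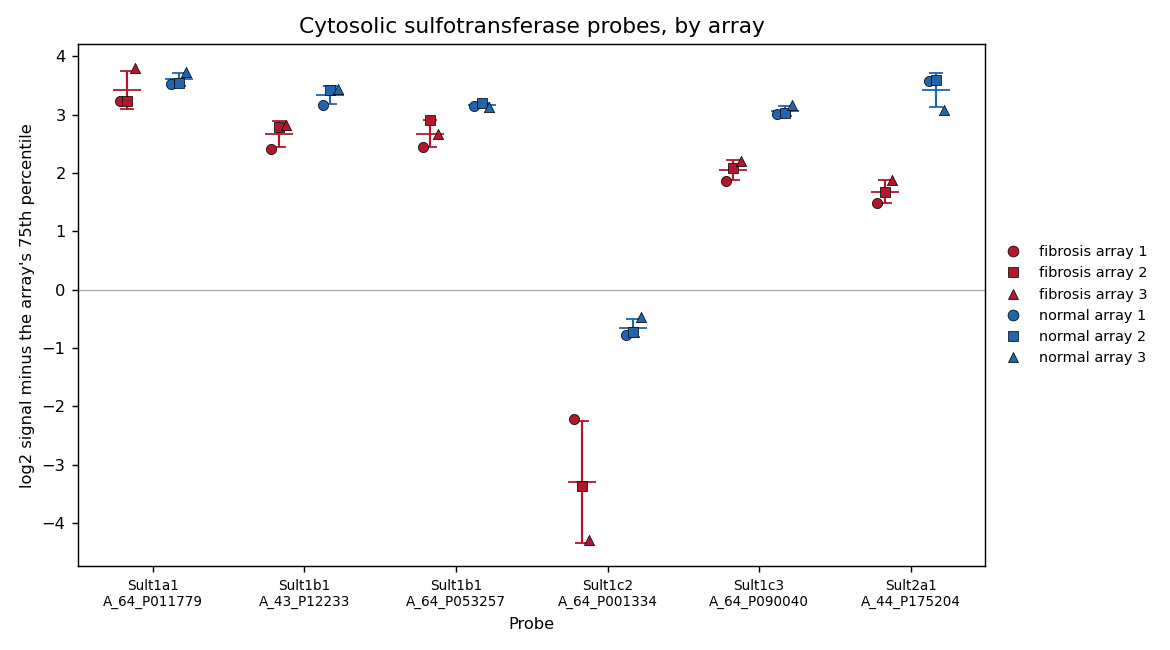
Scaled log2 level (log2 signal minus the array's 75th percentile) of the 6 probes on each array, fibrosis in red and normal in blue, with the group mean and SD as bars (n = 3 each). The groups are separate for each probe except Sult1a1, and the fibrosis arrays of Sult1c2 spread from -2.22 to -4.30.

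Sult1a1 encodes the main phenol sulfotransferase of liver, which conjugates simple phenols and drugs such as paracetamol. Its scaled log2 level was 3.24, 3.24 and 3.81 on fibrosis arrays 1, 2 and 3, against 3.53, 3.55 and 3.74 on normal arrays 1, 2 and 3. Fibrosis array 3 was the highest of the 6 and the other fibrosis arrays were the lowest, so that the groups overlapped. The log2 difference, fibrosis minus normal, was -0.18 ± 0.26 (SE, limma adjusted p = 0.681), with a 95% interval from -0.77 to 0.41. The sign of this difference turned under 3 other scalings: quantile normalization gave 0.27, cyclic loess gave 0.29, and scaling on the E1A spike-in spots gave 0.17.

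Sult1b1 encodes an enzyme that sulfates thyroid hormones and small phenols. Its brighter probe, A_43_P12233, had scaled log2 levels of 2.41, 2.79 and 2.82 on the fibrosis arrays, against 3.16, 3.43 and 3.44 on the normal arrays. All fibrosis arrays lay below all normal arrays, with fibrosis array 1 the lowest. The log2 difference was -0.67 ± 0.24 (SE), which was not called (limma adjusted p = 0.0924). The second probe, A_64_P053257, read 2.44, 2.92 and 2.67 on the fibrosis arrays, against 3.16, 3.21 and 3.14 on the normal arrays. Here too the groups did not overlap, and the difference of -0.49 ± 0.23 (SE) was not called (limma adjusted p = 0.195). The brighter probe was called under 3 alternatives, at -0.99 with scaling on the array median, at -0.67 with trend and robust settings of eBayes and at -0.91 with array weights.

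Sult1c2 had the largest difference of the 6 probes. It belongs to the SULT1C subfamily, whose genes Sult1c2, Sult1c2a and Sult1c3 lie on chromosome 9 in the rat. Its scaled log2 level was -2.22, -3.37 and -4.30 on fibrosis arrays 1, 2 and 3, against -0.77, -0.73 and -0.47 on normal arrays 1, 2 and 3. Normal livers were tightly grouped and all above the fibrotic ones, which were far apart from each other, with an SD of 1.04 in fibrosis and 0.16 in normal liver. The processed signals behind these levels were 1374, 469 and 260 in fibrosis and 2292, 2645 and 2707 in normal liver. The log2 difference was -2.64 ± 0.48 (SE, limma adjusted p = 0.00668), with a 95% interval from -3.73 to -1.54. It ran from -3.18 to -2.14 when each array was left out in turn, and the gene was called each time. With slide row as a covariate, which sets fibrosis array 1 against the 3 normal arrays of the same row, the difference was -1.56 and was not called (limma adjusted p = 0.100). The 2 spots of this probe read 309 and 713 signal units on fibrosis array 2, a ratio of 2.31.

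Sult1c3 belongs to the same subfamily. Its scaled log2 level was 1.87, 2.09 and 2.22 on the fibrosis arrays, against 3.01, 3.04 and 3.17 on the normal arrays. The groups were separate, with little spread in either. The log2 difference was -1.02 ± 0.23 (SE, limma adjusted p = 0.0169), with a 95% interval from -1.54 to -0.49. This call depended on scaling: quantile normalization gave a difference of -0.68, cyclic loess gave -0.65 and E1A scaling gave -0.67, and none of these was called (limma adjusted p = 0.078, 0.0864 and 0.172). It was also not called without fibrosis array 1 or without any 1 of the 3 normal arrays, at differences from -1.05 to -0.92, or with slide row as a covariate (-1.20, limma adjusted p = 0.087). The 2 spots of this probe agreed within a ratio of 1.10 on every array, and 3 of its 12 spots were marked.

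Sult2a1 is a hydroxysteroid sulfotransferase of the SULT2A subfamily, the enzymes that sulfate bile acids. Its scaled log2 level was 1.48, 1.68 and 1.88 on fibrosis arrays 1, 2 and 3, against 3.58, 3.60 and 3.09 on normal arrays 1, 2 and 3. Each fibrotic liver lay more than 1 log2 unit below the lowest normal liver. The log2 difference was -1.74 ± 0.26 (SE, limma adjusted p = 0.00261), with a 95% interval from -2.33 to -1.15. It was called under all 19 alternatives that could be run for it, at -2.06 to -1.38. All 12 of its spots were marked, so no value was left for it when marked spots were left out. The processed signals of those spots ran from 10074 to 23950 in fibrosis and from 28684 to 55903 in normal liver, without overlap, and the 2 spots on fibrosis array 2 differed by a ratio of 2.38.

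**Figure D2:**
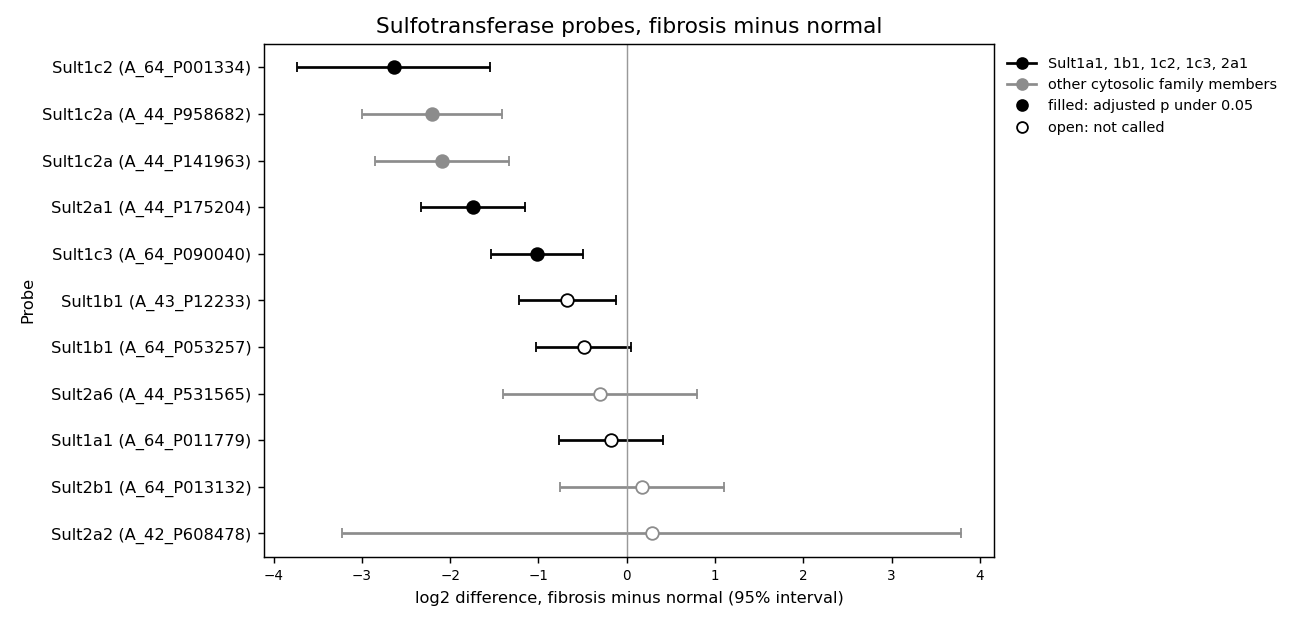
Log2 difference, fibrosis minus normal, of each tested sulfotransferase probe with its 95% interval (limma, n = 3 each). Black marks the 6 probes of Sult1a1, Sult1b1, Sult1c2, Sult1c3 and Sult2a1, grey the other cytosolic family members, and filled points are called. The differences run from -2.64 for Sult1c2 to 0.28 for Sult2a2.

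The 2A subfamily is a group of close copies in the rat, and its promoters show how alike Sult2a1 and its neighbours are. The windows below run from 250 bases before to 50 after the annotated start (RefSeq, GRCr8, minus strand, chromosome 1), in lower case with 2 motifs in capitals. The first motif, GGGTCATGAACT, is an inverted repeat of the receptor elements GGGTCA and AGTTCA, facing each other with no base between (IR0), of a type known to bind the bile acid receptor FXR and the xenobiotic receptors PXR and CAR in rodent Sult2a genes. The second is a C/EBP-type motif, TTGCNNAA, here TTGCTCAA. Sult2a1 is at chr1:84638898-84639197, Sult2a6 at chr1:84097759-84098058 and Sult2a2 at chr1:85104483-85104782.
Sult2a1: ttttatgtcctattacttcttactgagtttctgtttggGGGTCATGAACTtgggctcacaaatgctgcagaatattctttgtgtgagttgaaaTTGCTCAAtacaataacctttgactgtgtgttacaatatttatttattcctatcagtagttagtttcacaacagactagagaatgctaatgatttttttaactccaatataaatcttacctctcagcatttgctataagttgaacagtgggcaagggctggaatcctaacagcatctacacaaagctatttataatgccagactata
Sult2a6: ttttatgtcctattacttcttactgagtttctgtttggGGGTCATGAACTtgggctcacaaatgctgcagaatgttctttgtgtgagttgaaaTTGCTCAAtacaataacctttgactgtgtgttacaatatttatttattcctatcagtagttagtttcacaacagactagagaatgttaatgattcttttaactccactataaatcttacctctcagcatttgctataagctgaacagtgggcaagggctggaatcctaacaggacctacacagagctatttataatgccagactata
Sult2a2: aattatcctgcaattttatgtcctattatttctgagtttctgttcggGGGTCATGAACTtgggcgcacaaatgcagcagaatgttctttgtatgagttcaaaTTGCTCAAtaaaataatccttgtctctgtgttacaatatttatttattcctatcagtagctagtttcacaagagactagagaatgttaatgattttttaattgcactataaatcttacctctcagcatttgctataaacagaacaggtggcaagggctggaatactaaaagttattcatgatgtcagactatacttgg

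Of 33469 rat promoter windows of this length, searched on both strands, 8 (0.0239%) held the IR0 and 3 of these were the Sult2a genes. The C/EBP-type motif was in 10.6% of windows. The motifs did not overlap each other. The IR0 lay 201 to 212 bases before the start in Sult2a1 and Sult2a6, and 192 to 203 bases before it in Sult2a2. The windows of Sult2a1 and Sult2a6 were identical at 97.3% of bases, with 8 mismatches, while Sult2a1 and Sult2a2 were identical over 79.9% of their alignment. A match describes letters in a window and shows no binding.

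The probes of Sult2a6 and Sult2a2 were read beside that of Sult2a1. Sult2a6, a dehydroepiandrosterone-preferring member, read 2.85, 3.60 and 2.37 on the fibrosis arrays, against 3.74, 3.74 and 2.25 on the normal arrays (scaled log2 level). The groups overlapped, because normal array 3 lay below every fibrosis array. Fibrosis array 3 was likewise the lowest of its group. The log2 difference was -0.30 ± 0.48 (SE, limma adjusted p = 0.712), and it turned sign under quantile normalization (0.080), cyclic loess (0.12) and E1A scaling (0.042). Leaving out each array in turn moved it between -0.80, without normal array 3, and -0.019, without fibrosis array 3. The difference of Sult2a1 from Sult2a6 in response was not tested.

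Sult2a2, another dehydroepiandrosterone-preferring member, read -0.94, 0.44 and -4.51 on the fibrosis arrays, against -0.06, -0.71 and -5.09 on the normal arrays. Fibrosis array 3 and normal array 3 thus stood far below the other arrays, across both groups. The probe was printed in 10 spots per array, whose signals ran from 108 to 284 on fibrosis array 3 and from 78.3 to 144 on normal array 3. On the other arrays the same spots ran from 2752 to 7728 in fibrosis and from 2185 to 4630 in normal liver. The log2 difference was 0.28 ± 1.53 (SE, limma adjusted p = 0.922). The files hold no probe sequences, so signal of a gene and of its close copies cannot be told apart, for the 2A genes and for Sult1c2 and Sult1c2a alike.

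**Figure D3:**
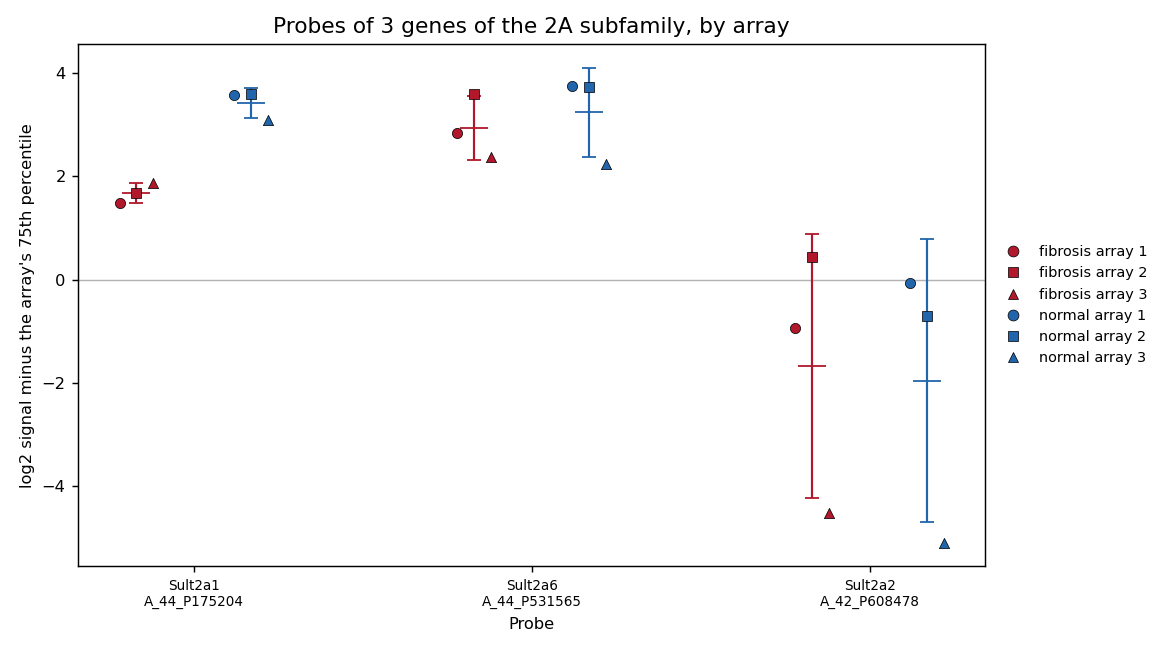
Scaled log2 level of the probes of Sult2a1, Sult2a6 and Sult2a2 on each array, fibrosis in red and normal in blue, with the group mean and SD (n = 3 each). Sult2a1 separates the groups, while array 3 of each group is the lowest of its group for Sult2a6 and lies below -4 for Sult2a2.

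Sult1c2a was the remaining family member that was lower. Its probe A_44_P141963 read 0.19, -0.88 and -0.89 on the fibrosis arrays, against 1.60, 1.58 and 1.50 on the normal arrays, a log2 difference of -2.09 ± 0.33 (SE, limma adjusted p = 0.00362). Its second probe, A_44_P958682, read -0.41, -0.95 and -1.71 on the fibrosis arrays, against 1.09, 1.36 and 1.08 on the normal arrays, a 4.60-fold lower level in fibrosis. As for Sult1c2, fibrosis array 1 was the highest fibrosis array on both probes. With slide row as a covariate the first probe's difference was -1.37 and was not called (limma adjusted p = 0.0545). Of 9 further family genes listed, 7 had a probe and 4 were tested, of which 1 was called lower and 0 higher, with a median difference of -0.07. Sult2b1, the cholesterol sulfotransferase, differed by 0.17 ± 0.40 (SE, limma adjusted p = 0.813). Sult1d1, Sult4a1 and Sult6b1 were not well above background on any array.

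The members were also set against each other. Within an array, the log2 ratio of 1 member to another does not depend on how arrays are scaled by a constant, and 9 of the 10 pairs of genes had ratios without overlap between the groups, against 45.8% of all pairs among the 10864 genes tested. The 10 pairs share 5 genes and are not independent of each other. Sult1c3 minus Sult2a1, on the log2 scale, was 0.39, 0.40 and 0.33 on the fibrosis arrays, against -0.57, -0.56 and 0.08 on the normal arrays. Sult1b1 minus Sult2a1 was 0.93, 1.11 and 0.94 on the fibrosis arrays, against -0.42, -0.16 and 0.35 on the normal arrays. In both pairs the ratio was higher in every fibrotic liver, that is, Sult2a1 was lower in fibrosis by more than its partner. Sult1a1 minus Sult1b1 was 0.83, 0.45 and 0.99 on the fibrosis arrays, against 0.36, 0.12 and 0.30 on the normal arrays. The pair that overlapped was Sult1c2 with Sult2a1. For 3 arrays against 3 the smallest exact two-sided permutation p is 0.1, which the 9 pairs reached, and 0.111 after adjustment over the 10 pairs.

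Sulfotransferases are expressed mainly in hepatocytes, and in a tissue block fewer hepatocytes and less RNA per hepatocyte cannot be told apart. All 15 hepatocyte markers listed were well above background on all 6 arrays. Their mean scaled log2 level was 2.26 to 2.35 on fibrosis arrays and 2.88 to 3.19 on normal arrays, and their summed linear level was 129 to 154 in fibrosis and 207 to 222 in normal liver. All 15 differences were below 0, from -1.62 to -0.30 with a median of -0.77, although quantile normalization put 3 of them above 0, cyclic loess put 5 there and E1A scaling put 1 there. Called lower were 2 of the 15: Apoa2, a lipoprotein component, at -1.62 ± 0.31 (SE, limma adjusted p = 0.00823), and Tdo2, the tryptophan dioxygenase, at -0.99 ± 0.27 (SE, limma adjusted p = 0.0361). Over all 10864 genes tested, each by its brightest probe, the median was -0.07, with 7.62% called lower and 14.7% called higher. With marked spots left out, 11608 of the 19731 probes could be tested, and Apoa2 and Tdo2 were not among them. The count of called hepatocyte markers was 0 in that setting, 5 with trend and robust eBayes, 8 with scaling on the array median and 10 with array weights. It was 4 if fibrosis array 3 was left out, and 1 if fibrosis array 1, normal array 2 or normal array 3 was left out.

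Markers of bile duct and stellate cells were higher. Of 11 bile duct cell markers tested, 10 were called higher, with a median log2 difference of 4.43, and their summed level was 11.0 to 15.8 in fibrosis and 1.14 to 1.52 in normal liver. Krt7, a duct keratin that was well above background on 1 of the 3 normal arrays, was higher by 5.65 ± 0.53 and Sctr, the secretin receptor, by 5.47 ± 0.44 (log2, SE). The Krt7 probe entered the test only through the fibrosis arrays. Of 11 stellate cell and myofibroblast markers, 8 were called higher, with a median of 2.10 and summed levels of 23.8 to 45.5 in fibrosis and 8.96 to 13.4 in normal liver. They included Col1a1, a chain of collagen I, at 3.19 ± 0.64 and Vim, the filament protein vimentin, at 3.13 ± 0.26 (log2, SE). With marked spots left out, 4 duct cell and 5 stellate cell markers were called among those that could still be tested. Macrophage markers had 0 of 9 called by limma, with 2 higher at an unadjusted p under 0.05, Cd163 (0.96, log2) and Marco (1.60, log2). All 9 lay above 0, except that 5 of them lay below 0 with scaling on the array median, and their mean scaled log2 level was 1.44 to 1.60 in fibrosis and 0.88 to 1.25 in normal liver. Called macrophage markers numbered 2 with cyclic loess and 4 with array weights. Endothelial markers had 0 of 6 called by limma, with 3 below and 3 above 0 and a median of -0.04. At an unadjusted p under 0.05, Kdr was lower (-0.75, log2) and Emcn was higher (0.81, log2). Kdr was called with scaling on the array median, among other alternatives, and Emcn with E1A scaling. The part of these cell types in the sulfotransferase differences was not tested.

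Each member was then read relative to the mean of the 15 hepatocyte markers of the same array. Sult1c2 minus that mean was -4.54, -5.72 and -6.56 on the fibrosis arrays, against -3.65, -3.92 and -3.61 on the normal arrays, a difference of -1.88 on the log2 scale. Sult2a1 minus the mean was -0.84, -0.67 and -0.38 on the fibrosis arrays, against 0.71, 0.40 and -0.05 on the normal arrays, a difference of -0.98. Both were still lower in every fibrotic liver. Sult1c3 minus the mean was -0.45, -0.26 and -0.05 on the fibrosis arrays, against 0.13, -0.16 and 0.03 on the normal arrays, and here the groups overlapped. Sult1a1 was on the other side, at 0.92, 0.89 and 1.55 on the fibrosis arrays against 0.65, 0.36 and 0.60 on the normal arrays, a difference of 0.58 with every fibrotic liver higher. The marker mean was itself lower in fibrosis, at 2.26 to 2.35 against 2.88 to 3.19 in normal liver. A gene whose scaled level did not differ therefore lies higher on this measure. The share of all genes without overlap on it was not counted. The 2 probes of Sult1b1 differed by 0.09 and 0.27 with overlapping groups. The exact two-sided permutation p was 0.1 for Sult1c2, Sult2a1 and Sult1a1, the smallest that 3 arrays against 3 can give, and 0.2 after adjustment over the 6 probes.

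**Figure D4:**
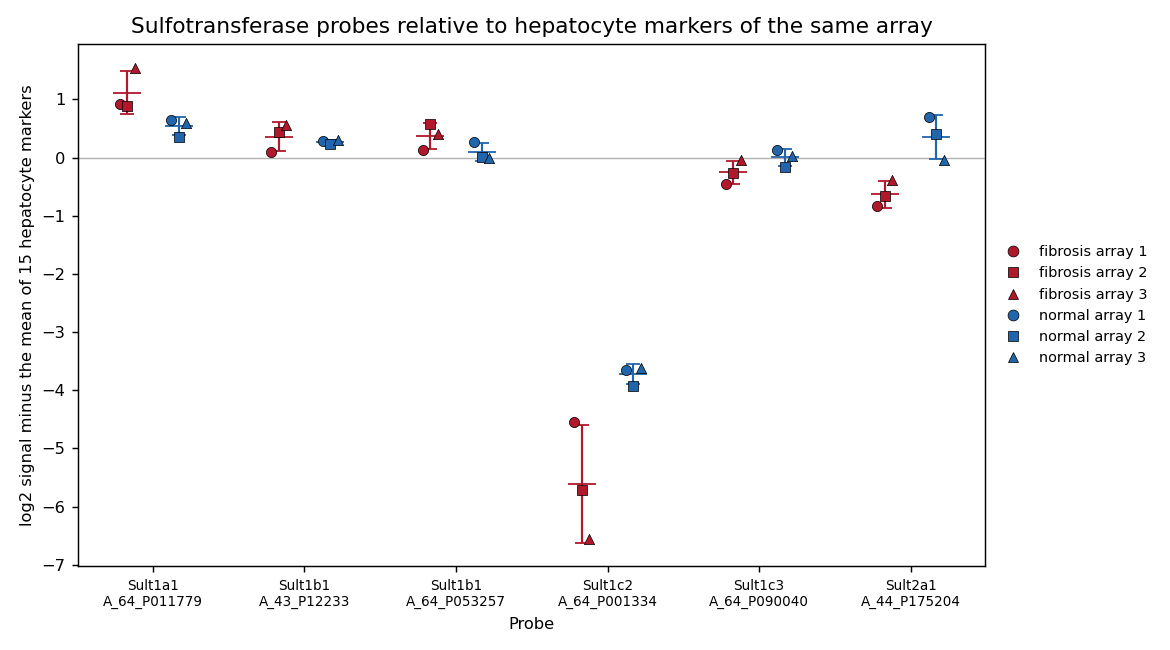
Log2 signal of each probe minus the mean of 15 hepatocyte markers on the same array, fibrosis in red and normal in blue, with the group mean and SD (n = 3 each). Sult1c2 and Sult2a1 are lower in every fibrotic liver, Sult1a1 is higher in every fibrotic liver, and the other probes overlap. The marker mean is itself lower in fibrosis, which lifts a gene that does not differ.

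The supply of the sulfonate donor was examined next. PAPS is made from sulfate and ATP by PAPS synthases, carried into the Golgi by Slc35b2 and its relatives, and its spent form is broken down by Bpnt1 and related phosphatases. Of 5 such genes tested with limma, 0 were called in either direction, with a median log2 difference of -0.59, and 3 were lower at an unadjusted p under 0.05. Over all 10864 genes, each by its brightest probe, 14.7% were called higher and 7.62% lower, shares that also stand beside the list counts below. At an unadjusted limma p under 0.05, 14.7% of all probes were lower. For 19.3% of all probes the groups did not overlap and fibrosis was lower. Papss2, the main PAPS synthase of liver, had scaled log2 levels of 0.94, 1.41 and 1.26 on the fibrosis arrays, against 1.75, 2.12 and 2.04 on the normal arrays. Its groups did not overlap, and the difference of -0.77 ± 0.25 (SE) was not called (limma adjusted p = 0.0656). Bpnt1 differed by -0.70 ± 0.27 (SE, limma adjusted p = 0.11) without overlap. The count of lower genes was 3 with scaling on the array median and with array weights, and 1 without fibrosis array 3.

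Several genes of sulfate uptake and sulfur oxidation were lower. Of 9 tested genes of sulfate uptake and sulfur oxidation, 5 were called lower and 0 higher, with a median log2 difference of -0.87. Cdo1, cysteine dioxygenase, which starts the oxidation of cysteine sulfur, read 1.51, 1.19 and 0.83 on the fibrosis arrays, against 2.37, 2.74 and 2.90 on the normal arrays, a difference of -1.49 ± 0.28 (SE, limma adjusted p = 0.00745). Tst, the mitochondrial sulfurtransferase rhodanese, differed by -1.29 ± 0.27 (SE, limma adjusted p = 0.013). The other called genes, named after their values were seen, were Suox, the sulfite oxidase that makes sulfate, at -1.06, the sulfate carrier Slc26a1 at -0.94 and the sulfurtransferase Mpst at -0.87. The count was 2 with quantile normalization or cyclic loess, 0 with E1A scaling or slide row as a covariate, 2 if fibrosis array 1 was left out, 3 if normal array 1 was left out, and 1 if normal array 2 or 3 was left out.

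Enzymes that remove sulfate, and those that sulfate sugars and proteins in the Golgi, were counted in the same way. Of 10 sulfatases and activators tested, 1 was called higher and 0 lower, with a median log2 difference of -0.03, which turned to 0.32 with E1A scaling. The called gene was Sulf1, which trims sulfate from heparan sulfate outside the cell. It was not well above background on any normal array and was at least 4.60-fold higher in fibrosis (limma adjusted p = 0.00228). Sumf1, the activator of sulfatases, differed by -1.03 ± 0.44 (SE, limma adjusted p = 0.144). Of 21 Golgi sulfotransferases tested, 5 were called higher and 0 lower (6 and 2 at an unadjusted p under 0.05), with a median of 0.27, which turned to -0.05 with scaling on the array median. Hs3st2, a heparan sulfate sulfotransferase, was at least 26.3-fold higher (limma adjusted p = 2.57e-05), and Gal3st1, which makes sulfatide, was at least 14.7-fold higher (limma adjusted p = 7.33e-05). Neither was well above background on any normal array, so both, like Sulf1, entered the test only through the fibrosis arrays, where they were high. Their limma p values rest on normal signals near background. With a filter on all 6 arrays, 0 sulfatases and activators were called higher. The remaining 3, Chst14, Chst1 and Ust, which were named after their values were seen, differed by 2.16, 1.90 and 1.55. In normal liver Ust was above background in 2 of 3 animals, so it too entered the test only through the fibrosis arrays. The Golgi count was 8 with array weights and 2 with slide row as a covariate or with a filter on all 6 arrays, while 3 Golgi genes were called lower with scaling on the array median.

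Carriers that move sulfated steroids and bile acids across the hepatocyte membrane were mostly lower. Of 11 tested, 7 were called lower and 1 higher, with a median log2 difference of -1.42. Slco2b1, an uptake carrier of steroid sulfates, differed by -1.90 ± 0.37 (SE, limma adjusted p = 0.0094). Slco1a1, another organic anion uptake carrier, read 0.73, -0.03 and 0.52 on the fibrosis arrays, against 1.72, 2.76 and 2.34 on the normal arrays, a difference of -1.86 ± 0.34 (SE, limma adjusted p = 0.00705). Abcc3, an exporter that sends conjugates back to the blood, was higher, at 2.35 ± 0.49 (SE, limma adjusted p = 0.0132), and in normal liver it was above background in 2 of 3 animals. Its probe thus entered the test only through the fibrosis arrays. The count of lower carriers was 1 with marked spots left out, where Slco2b1 and Slco1a1 could not be tested. It was 1 with slide row as a covariate, 3 with E1A scaling, and 4 without normal array 2 or normal array 3.

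**Figure D5:**
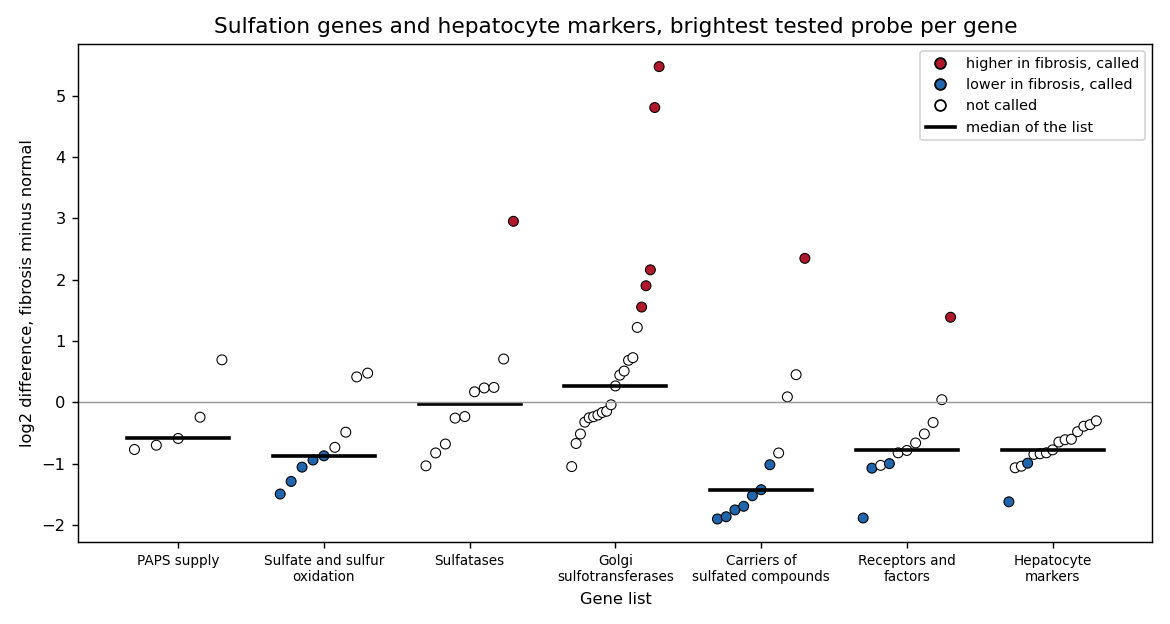
Log2 difference, fibrosis minus normal, of each tested gene of 7 lists (brightest probe per gene, limma), red if called higher in fibrosis, blue if called lower and white if not called, with the list median as a line. Genes of sulfate uptake and sulfur oxidation, and carriers, lie mostly below 0, while the 5 called Golgi sulfotransferases lie above it. For Hs3st2, Gal3st1 and Sulf1 the fitted value rests on normal arrays not well above background.

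Among 11 tested receptors and factors known to regulate sulfotransferase genes, 3 were called lower, with a median log2 difference of -0.78. Cebpa, a liver transcription factor of the C/EBP family, read -4.51, -4.85 and -4.21 on the fibrosis arrays, against -2.40, -2.63 and -2.89 on the normal arrays. The groups were far apart, and the difference was -1.89 ± 0.27 (SE, limma adjusted p = 0.00222). Ppara, the fatty acid receptor, differed by -1.07 ± 0.23 (SE, limma adjusted p = 0.015). The receptors of the IR0 element were looked up after their values were seen: Nr1h4, which encodes FXR, was lower, at 0.94, 0.94 and 0.89 on the fibrosis arrays against 1.84, 1.92 and 2.01 on the normal arrays (scaled log2 level, limma adjusted p = 0.015), while Nr1i3 for CAR and Nr1i2 for PXR, with log2 differences of -1.03 and -0.78, were not called (limma adjusted p = 0.155 and 0.158). The count of lower genes was 7 without fibrosis array 3, 8 with array weights, and 1 with E1A scaling, with slide row as a covariate, and without normal array 2 or normal array 3. The part of these factors in the sulfotransferase differences was not tested.

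Several rat sulfotransferases are known to differ between the sexes through the pattern of growth hormone release, and genes of that axis were read beside them. Of 15 tested, 7 were called lower and 1 higher, against 7.62% and 14.7% of all 10864 genes. The median log2 difference was -1.0. Cyp2c11, the P450 typical of male rat liver, read -3.53, -5.36 and -3.18 on the fibrosis arrays, against 2.61, 3.09 and 3.98 on the normal arrays, a difference of -7.25 ± 0.59 (SE, limma adjusted p = 0.000148). Prlr, the prolactin receptor, was lower at -4.07 ± 0.47 (SE, limma adjusted p = 0.000826). Cyp2c12, the P450 typical of female rat liver, was higher at 1.10 ± 0.31 (SE, limma adjusted p = 0.0426). It was the only gene of the 15 that was called higher. This last call was lost when any array other than normal array 2 was left out. It was also lost with scaling on the array median, with no filter on dim probes, with slide row as a covariate and at a threshold of 0.01. The count of lower genes was 3 with marked spots left out, among those that could still be tested, and 4 with slide row as a covariate. Sex labels are given here for Cyp2c11 and Cyp2c12 only, and a shift of the list between the sex patterns was not tested. Whether the animals were male or female is not stated in the labels, and the part of this axis in the sulfotransferase differences was not tested.

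For each member, the genes whose 6 values lay closest to its own were found by the root mean square difference of centred scaled log2 levels over the 6 arrays, among 10859 genes. This is a description of these arrays with no test. For Sult2a1 the closest were Adh4, an alcohol dehydrogenase, at 0.118, Acsl1, an acyl-CoA synthetase, at 0.171 and Tef, a circadian transcription factor, at 0.188, where the median gene lay at 0.934. For Sult1c2 they were Slco1a6 at 0.196, G0s2 at 0.223 and Gjb1, the hepatocyte gap junction protein, at 0.261, with the median gene at 1.48. For Sult1c3 the nearest was Slc22a7, an organic anion carrier also counted among the carriers above, at 0.0221, followed by Ptgr3 and Gpld1. For Sult1b1 they were Uox, the urate oxidase, at 0.0686, then Papss2 at 0.0772 and Npc1, and for Sult1a1 they were Mrpl21, Svip and C7h8orf76.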

How the data were processed

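Total RNA came from liver tissue blocks, and its cDNA carried the single dye Cy3, per the labels. The deposited values are spot intensities from Agilent Feature Extraction 11.5.1.1, whose processed signal is background subtracted and detrended per the file headers. The files record no step that makes arrays comparable. Each array held 58717 spots other than controls. Accessions were looked up, versions removed, in a RefSeq gene table (GRCr8), where 18355 probes got a gene symbol and 12012 got none. Promoter windows came from the RefSeq GRCr8 sequence table.

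From each log2 processed signal the 75th percentile of its array was taken away, with control spots dropped. Spots marked as non-uniform or population outliers were kept, as the rule that defined this group of genes asks, and 47 of the 72 spots of these genes were marked. Spots of a probe were averaged. The test took probes with at least 0.5 of their spots well above background on each array of 1 group or both. The fit used lmFit and eBayes of limma 3.58.1 in R 4.3.3 on all 19731 such probes, with Benjamini-Hochberg adjustment, and called at an adjusted p under 0.05. The script was tested on simulated data with 200 of 19731 probes changed. It called 20 of 50 probes at a log2 difference of -2 and 16 of 50 at 2. At -1 it called 0 of 50, at 1 it called 0 of 50, and of 19531 unchanged probes it called 0. On the arrays themselves 3778 probes were called, so these shares may not carry over. For a gene with several probes, the brightest stood for it in the lists. Where no array of a group was well above background, the fold is a lower bound, in which each dim array counts with its own value or with its dimmest probe that is well above background, whichever is brighter.

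The text names every probe of the 6 genes and, from every list, the called genes with the largest changes, at most 2 each way (where under 2 were called, those with the smallest p), plus the 3 genes closest to each member. Some genes that this rule reaches are not reported here. The members and lists were chosen with earlier results of these data known. Replicate numbers follow the order of the records and pair no arrays. Alternatives were quantile normalization, cyclic loess, the array median, E1A spike-in scaling, normexp on median signals (mean signals are not used here), marked spots left out, other filters and probe summaries, trend and robust eBayes, array weights, slide row as a covariate, a threshold of 0.01 and each array left out in turn. The alternatives for values relative to hepatocyte markers were chosen after seeing the data.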

Additional observations from a re-analysis of the deposited data

How the results depend on the processing

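Sult2a1 and Sult1c2 kept their direction in all 19 alternatives run for each. Sult2a1 was called in all of them, and Sult1c2 in all except slide row as a covariate (-1.56). Sult1c3 stayed below 0 in all 20 alternatives and was called in 11 of them. It was not called with quantile normalization (-0.68), cyclic loess (-0.65), E1A scaling (-0.67), slide row as a covariate (-1.20) or a threshold of 0.01 (-1.02), nor without fibrosis array 1 or any 1 normal array. Leaving out each array in turn gave -1.10 to -0.92 for Sult1c3, -3.18 to -2.14 for Sult1c2, -1.91 to -1.64 for Sult2a1, -0.76 to -0.54 for Sult1b1 (A_43_P12233) and -0.37 to -0.08 for Sult1a1. The brighter Sult1b1 probe was called with the array median (-0.99), trend and robust eBayes (-0.67) and array weights (-0.91). Sult1a1 changed sign with quantile normalization (0.27), cyclic loess (0.29) and E1A scaling (0.17). Sult2a6 did so as well, at 0.080, 0.12 and 0.042. The cause was not tested for any of these changes. The median difference of all probes was -0.10 as reported, -0.41 under array median scaling and 0.25 under E1A scaling, which shifts every difference alike.

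The number of probes called higher was 2439 as reported, 1020 with slide row as a covariate, 1422 at a threshold of 0.01 and 1514 to 2851 when each array was left out, the lowest without normal array 3. The number called lower was 1339 as reported, 588 with marked spots left out, 3505 under array median scaling, 326 under E1A scaling, 799 with no filter on dim probes, 3580 with array weights, 178 with slide row as a covariate, 385 at a threshold of 0.01 and 450 to 1620 when each array was left out, at 713, 519 and 450 without normal array 1, 2 and 3. The 588 probes called lower with marked spots left out were among 11608 that could be tested, against 19731 as reported. In that setting Sult1c3 was the only member that could be tested (-1.07, limma adjusted p = 0.0372). With 3 arrays a group, small differences such as that of Sult1a1 could not be resolved, and a gene that was not called may still differ.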
